A study of Mus musculus with 8 samples.

Results

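The genes described here are 44 genes of NF-kB and TNF signalling and of inflammatory cell death, chosen by symbol from the deposited gene counts of mouse skin keratinocytes. They are the NF-kB subunits, their inhibitors and target genes, the TNF receptor complex, and genes of apoptosis, necroptosis and pyroptosis. All 44 were among the 24421 symbols counted, 1 of them (Gsdme) under its older symbol Dfna5, and 43 were abundant enough to be tested among 13016 genes. The 4 control libraries carried InvEE and floxed Hmgb1 alleles without K5-Cre (InvEE K5 Cre- HMGB1 fl/fl). The 4 knockout libraries carried the same alleles together with K5-Cre (InvEE K5 Cre+ HMGB1 fl/fl), and the strain of both was CBA x C57Bl/6J. InvEE is a transgene that expresses an activated MEK1 kinase from the involucrin promoter, which is active in the suprabasal layers of the epidermis, so controls and knockouts alike had this signal. K5-Cre acts in basal keratinocytes and the cells that come from them, and since only knockouts carried it, an effect of Cre and one of losing Hmgb1 cannot be told apart. The labels give neither age nor sex, and do not say whether each replicate is a different animal: the spread behind each p-value may thus be partly technical. Each group held libraries with Y-linked transcripts and libraries with next to none (given below), so a single animal cannot account for a whole group.

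NF-kB proteins wait in the cytoplasm, held by inhibitors of the IkB family, until a kinase complex marks the inhibitor for destruction. They then enter the nucleus and switch on genes that include their own inhibitors, such as Nfkbia and Tnfaip3, which end the signal. When TNF binds its receptor TNFR1, encoded by Tnfrsf1a, the adaptors and ubiquitin ligases that gather there (TRADD, TRAF2, the cIAP proteins, RIPK1) can signal to NF-kB and survival. If that complex fails, caspase-8 can start apoptosis, or RIPK3 and MLKL can start necroptosis. Inflammatory caspases cut gasdermins, which form pores in the membrane. In skin, keratinocytes depend on this balance, and its loss in mice gives inflammation of the epidermis.

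Hmgb1 was at 565.5 to 615.0 CPM (counts per 1e+06 counts of the TMM-scaled library) in controls and 113.4 to 126.2 CPM in knockouts, so the labels fit the counts of the targeted gene. Library totals ran from 30506676 to 34229030 counts on genes. Keratinocyte markers were abundant (13 listed genes summing to 55740 to 66590 CPM in controls, against 66710 to 73990 CPM in knockouts). Immune cell markers summed to 3.83 to 22.95 CPM in controls, against 2.97 to 12.6 CPM in knockouts, with 12 of 19 under 1 CPM in every library and Ms4a1 and Cpa3 at 0. Markers of Langerhans cells, the resident immune cells of the epidermis, were listed apart and were higher. They summed to 233 to 329.1 CPM in controls, against 235.8 to 419.3 CPM in knockouts, with 1 of 8 under 1 CPM in every library. Of the 7 tested, 1 had a positive and 6 had a negative fold change (median log2 -0.25), and 0 were called. The sum therefore does not describe each of these genes. Endothelial markers summed to 1.31 to 4.68 and 0.442 to 2.39 CPM, with 6 of 8 under 1 CPM in every library. Fibroblast markers summed to 253.3 to 407.9 and 360.6 to 428.6 CPM, mostly from Thy1 and Fn1, which keratinocytes can also express. Control replicate 3 stood apart in many of the genes below: of the 43 tested members it was the lowest of the 4 controls in 23 (53.5%), against 32% of all tested genes. Control replicates 2 and 3 and knockout replicate 1 had Y-linked transcripts. The other 5 libraries, control replicates 1 and 4 and knockout replicates 2, 3 and 4, had at most 51 counts of them.

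Few of these genes differed between the genotypes. Vcam1, an adhesion molecule for leukocytes and an NF-kB target, fell in the knockout, and Traf2, an adaptor of the TNF receptor complex, rose. The other 41 tested members did not pass the test. The share called, 2 of 43 or 4.65%, stands beside 8.87% of all tested genes (edgeR quasi-likelihood, adjusted p under 0.05). By direction, 1 member rose, against 4.33% of all genes, and 1 fell, against 4.54%. Of the 43, 6 had an unadjusted p under 0.05, against 26.2% of all genes, and the groups did not overlap for 3, against 17% of all genes. The median log2 fold change was 0.10 over the members and -0.02 over all tested genes. Among the 41 not called, the 95% interval of the fold change lay within 2-fold either way for 32 and within 1.5-fold for 17, so for those genes larger changes lie outside the interval. The other 9, whose intervals reach past 2-fold, were Rel, Tnip1, Tnfaip2, Tnf, Tnfrsf1b, Tnfsf10, Mlkl, Casp4 and Gsdma.

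**Figure D1:**
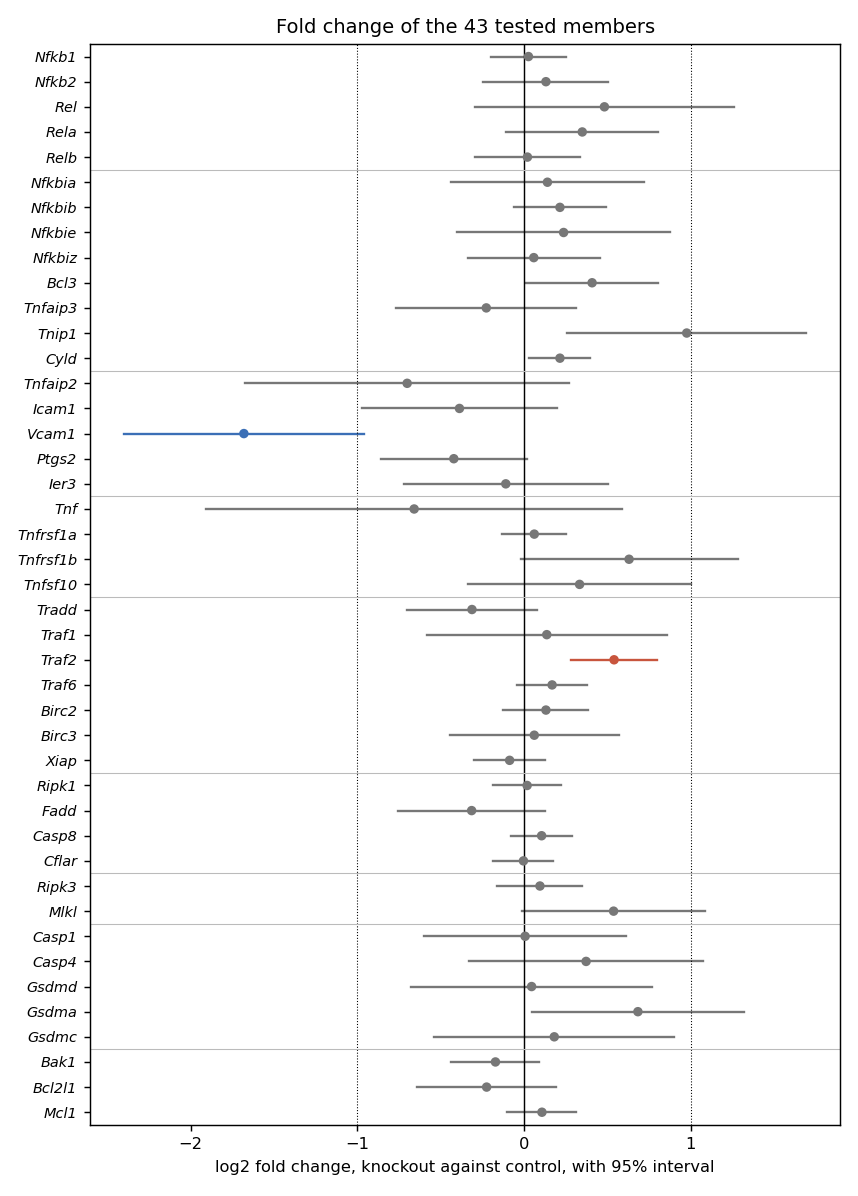
Log2 fold change of the 43 tested members (x axis, knockout against control) with its 95% interval from the edgeR fit, grouped by role; dotted lines mark 2-fold. Vcam1 (blue, -1.68) and Traf2 (red, 0.54) passed the test, and the grey genes did not.

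**Figure D2:**
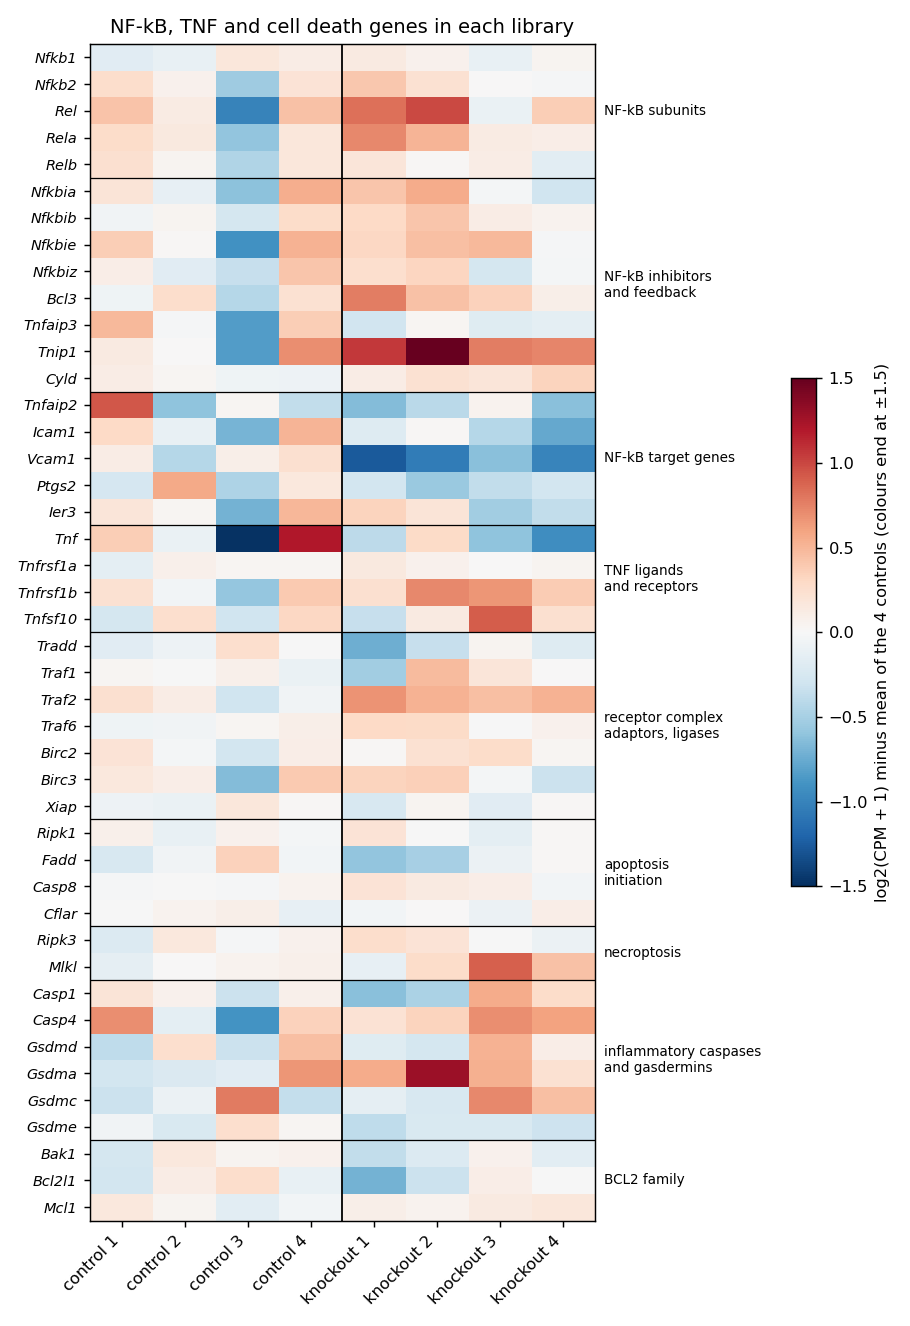
Each of the 44 genes (rows, by role) in each of the 8 libraries (columns), as log2(CPM + 1) minus the mean of the 4 controls. Control replicate 3 is blue for most NF-kB subunits and inhibitors, while no block of rows separates all knockouts from all controls.

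Vcam1 lies on chromosome 3 (116109949 to 116129688, minus strand, GENCODE vM21 on GRCm38, the assembly of mm10) and was scarce. Its level was 2.79, 1.60, 2.71 and 3.13 CPM in control replicates 1 to 4 and 0.465, 0.688, 1.26 and 0.758 CPM in knockout replicates 1 to 4. Every knockout was below every control, and the closest pair was control replicate 2 and knockout replicate 3. The log2 fold change was -1.68 (SE 0.33, 3.21-fold lower, edgeR adjusted p = 0.01322, exact permutation p = 0.0286, the smallest that 4 against 4 allows). These values rest on 13 to 107 counts per library. The call held in all 20 alternative fits, with log2 fold changes of -1.99 to -1.495 and adjusted p-values of up to 0.04704. Endothelial cells and leukocytes can express Vcam1, and the endothelial marker Pecam1 was at 0.914 ± 0.36 CPM in controls, against 0.46 ± 0.278 CPM in knockouts (SD, n = 4 each). Of the 8 endothelial markers 2 were abundant enough to be tested. Both had negative fold changes, but 0 were called and 0 had an unadjusted p under 0.05. The summed list gave an exact permutation p of 0.114. Of the 8 immune markers tested 1 fell, the mast cell and melanocyte receptor gene Kit, from 0.732 ± 0.229 to 0.13 ± 0.0669 CPM (edgeR adjusted p = 0.008833). Melanocyte markers, listed apart, did not fall with it. They summed to 5.87 to 6.71 CPM in controls, against 6.12 to 7.53 CPM in knockouts, and 0 of 3 tested were called. The part of endothelial cells, leukocytes or cells with Kit in the Vcam1 result was not tested. In bulk RNA, fewer cells of a type and less RNA per cell cannot be told apart. An antisense transcript, Gm43109, is annotated within the same span, and reads of it could not be told apart without strand.

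The other 4 genes grouped here as NF-kB targets also had negative fold changes in the knockout, but did not pass the test and their groups overlapped. The sign held in all 20 alternatives for Icam1, Ptgs2 and Tnfaip2 and in 18 for Ier3. This does not extend to every gene that NF-kB switches on. Among the 8 inhibitors and feedback regulators, described below, 7 fold changes were positive, that of Nfkbia (log2 0.14) among them, and 1 was negative. Icam1, which binds leukocyte integrins, was at 235.1, 176.8, 117.7 and 273.7 CPM in controls, against 167.1, 194.3, 141.6 and 111.5 CPM in knockouts. Control replicate 3 lay below 3 of the knockouts, and the log2 fold change was -0.39 (SE 0.26, edgeR adjusted p = 0.3851). Ptgs2, the inducible enzyme of prostaglandin synthesis, was at 476.4, 841.0, 411.8 and 633.1 CPM in controls, against 467.7, 387.8, 440.0 and 469.0 CPM in knockouts. The knockouts lay close together at the low end of the control range (log2 -0.42, 95% interval -0.86 to 0.02). Ier3, an early response gene, was at 173 ± 55.1 CPM in controls, against 160.5 ± 45.5 CPM in knockouts, and Tnfaip2 at 3.37 ± 2.27 and 2.07 ± 0.744 CPM (SD, n = 4 each). Tnfaip2 was at 6.65 CPM in control replicate 1 and at 1.63 to 3.08 CPM in the other controls, beside 1.54 to 3.14 CPM across the knockouts.

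Traf2 lies on chromosome 2 (25517982 to 25546940, minus strand). A processed pseudogene, Gm13433, lies within its span on the other strand. Traf2 encodes the adaptor that brings the cIAP ubiquitin ligases to TNF receptors. Its level was 60.7, 55.8, 41.5 and 49.7 CPM in control replicates 1 to 4 and 82.9, 74.3, 70.6 and 74.4 CPM in knockout replicates 1 to 4. All knockouts were above all controls, 1.46-fold on average by the fit (log2 0.54, SE 0.12, edgeR adjusted p = 0.01975, exact permutation p = 0.0286). The adjusted p was 0.05095 without control replicate 4, 0.05213 without knockout replicate 2 and 0.123 over only the 5 libraries lacking Y-linked transcripts (log2 0.41). That last fit has fewer libraries in both groups, and calls over all genes were 383 in it, against 1154 in the main fit. The summed keratinocyte markers were also higher in every knockout than in every control (exact permutation p = 0.0286), and their part in the Traf2 difference was not tested.

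**Figure D3:**
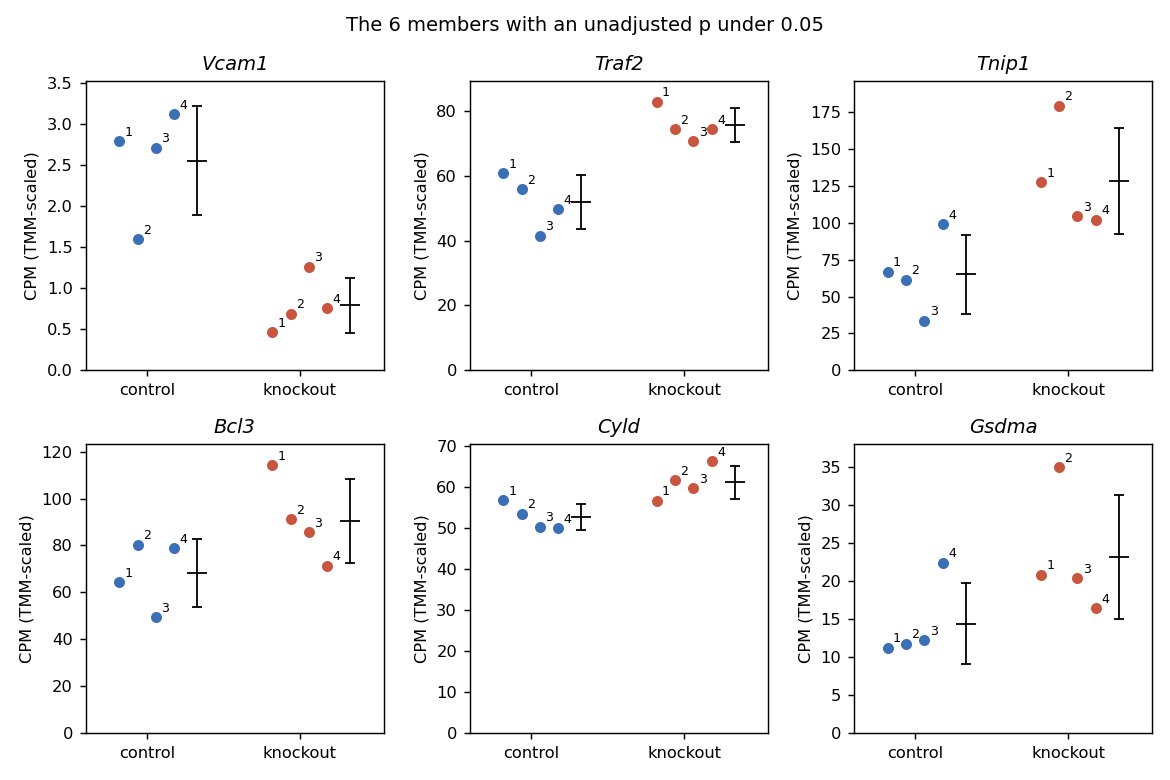
CPM (TMM-scaled, y axis from 0) of the 6 members with an unadjusted p under 0.05, as 1 point per library numbered by replicate, with mean and SD as bars. The groups are apart for Vcam1, Traf2 and Tnip1 and overlap for Bcl3, Cyld and Gsdma.

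Of the other adaptors and ligases of the receptor complex, none passed the test. Tradd, the first adaptor at TNFR1, was at 14.2 ± 1.99 CPM in controls, against 11.5 ± 2.71 CPM in knockouts (SD, n = 4 each, edgeR adjusted p = 0.2972). Traf6, which serves interleukin 1 and Toll-like receptors, was at 50.4 ± 2.51 and 56.7 ± 6.25 CPM. The cIAP genes Birc2 and Birc3 were at 54.6 ± 7.85 and 67.0 ± 18.6 CPM in controls, against 59.8 ± 5.60 and 69.9 ± 15.2 CPM in knockouts. Xiap, a caspase inhibitor, was at 72.8 ± 6.42 and 68.5 ± 6.74 CPM, and Traf1, an inducible adaptor, at 1.41 ± 0.119 and 1.551 ± 0.698 CPM. The interval for Traf6 was -0.04 to 0.38 and that for Xiap -0.30 to 0.13 on the log2 scale.

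Among TNF ligands and receptors, 0 of 4 passed with edgeR, DESeq2 or limma-voom, beside 8.87% of all tested genes with edgeR. Of the 4, 0 had an unadjusted p under 0.05, against 26.2% of all tested genes. Tnf itself was at 27.1, 19.5, 6.84 and 49.3 CPM in controls, against 15.7, 25.7, 13.3 and 10.45 CPM in knockouts. The controls alone spanned the range of all 8 libraries, and the log2 fold change of -0.66 had a 95% interval of -1.91 to 0.59. Without control replicate 4 it was -0.13, and without control replicate 3 it was -0.97. Over all 20 alternatives it ran from -1.21 to -0.13, and 0 of them called Tnf. Tnfrsf1a, the receptor of soluble TNF, varied little, from 309.2 to 363.4 CPM in controls, against from 345.3 to 378.8 CPM in knockouts (log2 0.06, 95% interval -0.13 to 0.25). Per kilobase of exon, its level in controls was 159.5 CPM, against 0.614 CPM for Tnfrsf1b, the receptor known mainly from immune and endothelial cells. Tnfrsf1b was at 2.79, 2.14, 1.17 and 3.27 CPM in controls, against 2.83, 4.35, 4.14 and 3.22 CPM in knockouts (edgeR adjusted p = 0.2048).

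The NF-kB subunits were all expressed, and edgeR, DESeq2 and limma-voom called 0 of 5, none of which had an unadjusted p under 0.05. With edgeR, 8.87% of all tested genes were called and 26.2% had an unadjusted p under 0.05. Rela, the main activating subunit of the canonical pathway, was at 254.8, 234.7, 139.5 and 238.2 CPM in controls, against 348.8, 300.9, 229.2 and 226.4 CPM in knockouts. Control replicate 3 was the lowest and knockout replicate 1 the highest, and the log2 fold change was 0.35 (SE 0.20, edgeR adjusted p = 0.3125). Rel, the subunit c-Rel, was at 116.9, 94.3, 42.8 and 118.1 CPM in controls, against 154.7, 172.8, 80.9 and 112.0 CPM in knockouts (log2 0.48, 95% interval -0.30 to 1.26). Nfkb1 had the narrowest interval of the 5, at 243 ± 28.2 CPM in controls, against 248 ± 17.1 CPM in knockouts (log2 0.03, 95% interval -0.20 to 0.25). Nfkb2 and Relb, subunits of the non-canonical pathway, were at 232 ± 52.1 and 71.1 ± 14.1 CPM in controls, against 254 ± 36.5 and 72.1 ± 7.29 CPM in knockouts (SD, n = 4 each). Per kilobase of exon, the control levels were 79.8 CPM for Rela, 59.0 for Nfkb1, 55.0 for Nfkb2, 32.1 for Relb and 12.5 for Rel. Nfkb1 and Nfkb2, next to each other in this order of levels, differed by less than the spread of their libraries.

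The inhibitors of NF-kB include genes that NF-kB itself switches on. Of these 8 regulators edgeR called 0 and DESeq2 called 1 (Tnip1), and 3 had an unadjusted p under 0.05 (Tnip1, Bcl3 and Cyld). Over all 13016 tested genes, edgeR called 8.87%, DESeq2 called 2010 genes, and 26.2% had an unadjusted p under 0.05 with edgeR. The promoters of 3 feedback genes and of Traf2 are printed here because the first 3 hold matches to the kappa B consensus, the site NF-kB binds, and Traf2 is the member that rose. Each run is the 250 bases before the annotated start in RefSeq on GRCm38.p6, written 5′ to 3′ on the gene's strand, with kappa B matches on either strand in capitals. In Tnip1 the capitals cover 3 overlapping matches.
Nfkbia, chr12:55492648-55492897, minus strand: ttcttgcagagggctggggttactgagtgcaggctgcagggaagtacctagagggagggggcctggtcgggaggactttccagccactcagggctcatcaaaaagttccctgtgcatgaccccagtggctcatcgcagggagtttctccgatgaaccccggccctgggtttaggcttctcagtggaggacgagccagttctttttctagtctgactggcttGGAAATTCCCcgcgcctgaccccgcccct
Tnfaip3, chr10:19015411-19015660, minus strand: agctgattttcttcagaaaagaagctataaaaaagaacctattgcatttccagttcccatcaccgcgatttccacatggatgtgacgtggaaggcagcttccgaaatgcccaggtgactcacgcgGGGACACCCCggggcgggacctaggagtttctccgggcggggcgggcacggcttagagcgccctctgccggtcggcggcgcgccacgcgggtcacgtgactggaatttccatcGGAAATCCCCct
Tnip1, chr11:54962941-54963190, minus strand: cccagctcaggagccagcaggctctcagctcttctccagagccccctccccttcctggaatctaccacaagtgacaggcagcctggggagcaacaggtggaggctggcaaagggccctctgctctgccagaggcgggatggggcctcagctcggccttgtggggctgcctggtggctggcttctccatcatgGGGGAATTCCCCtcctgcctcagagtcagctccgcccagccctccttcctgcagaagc
Traf2, chr2:25546941-25547190, minus strand: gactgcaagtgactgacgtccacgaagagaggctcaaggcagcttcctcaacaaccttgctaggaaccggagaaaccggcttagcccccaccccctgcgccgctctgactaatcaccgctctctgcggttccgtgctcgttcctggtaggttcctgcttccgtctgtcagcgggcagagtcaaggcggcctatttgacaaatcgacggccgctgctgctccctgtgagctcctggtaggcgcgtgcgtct
Over the 300 bases from 250 before to 50 after the start, 13 of the 36 members matched in the RefSeq promoter table used held the consensus in at least 1 promoter (36.1%), against 9.55% of 27025 genes. They were Nfkb2, Rel, Nfkbia, Nfkbie, Bcl3, Tnfaip3, Tnip1, Cyld, Tnfaip2, Ier3, Xiap, Casp4 and Bcl2l1. Vcam1, Nfkb1, Relb, Nfkbiz, Tradd, Gsdmd, Gsdma and Gsdmc were not matched and not searched. Several of these genes joined the list because they are known NF-kB targets, so the share describes the choice of members, and a match is not evidence of binding.

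Of the 4 genes with a printed promoter, Tnip1 had the largest fold change. It encodes ABIN-1, a ubiquitin-binding partner of the deubiquitinating enzyme A20, and lies on chromosome 11 (54910785 to 54962917, minus strand), with a processed pseudogene, Gm12230, on the other strand within its span. It was at 67.0, 61.4, 33.7 and 99.05 CPM in controls, against 127.7, 179.6, 104.6 and 102.2 CPM in knockouts. All knockouts were above all controls, though knockout replicate 4 exceeded control replicate 4 only slightly. The log2 fold change was 0.98 (SE 0.31, 1.97-fold, exact permutation p = 0.0286), and it did not pass edgeR's test over all genes (adjusted p = 0.09003). DESeq2 called it (adjusted p = 0.005773), as did limma-voom with quality weights (0.02583) and edgeR without control replicate 4 (0.04416). Over all 20 alternatives the adjusted p ran from 0.005773 to 0.4044, the highest over the 5 libraries lacking Y-linked transcripts (log2 0.64).

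Nfkbia, which encodes IkB-alpha, had the highest level per kilobase of exon of the 44 genes, at 706 CPM in controls, and Tnfaip3 came next at 323.8 CPM. Nfkbia was at 1217, 983, 698 and 1557 CPM in controls, against 1426, 1571, 1046 and 869 CPM in knockouts, with both groups spread over a like range (log2 0.14, 95% interval -0.44 to 0.72). Tnfaip3, which encodes A20, was at 1969, 1383, 786 and 1812 CPM in controls, against 1154, 1437, 1232 and 1263 CPM in knockouts. Its knockouts lay within the range of the controls (log2 -0.23, 95% interval -0.77 to 0.31).

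Bcl3, an IkB-like coactivator, was at 64.3, 80.4, 49.4 and 78.9 CPM in controls, against 114.3, 91.2, 85.6 and 71.3 CPM in knockouts. Knockout replicate 4 fell among the controls, and the log2 fold change was 0.41 (SE 0.18, edgeR adjusted p = 0.1772). Cyld, a deubiquitinating enzyme that restrains NF-kB, was at 56.7, 53.5, 50.3 and 49.9 CPM in controls, against 56.6, 61.7, 59.7 and 66.3 CPM in knockouts. It overlapped only by control replicate 1 and knockout replicate 1 (log2 0.22, SE 0.08, edgeR adjusted p = 0.1288). Nfkbiz, the nuclear coactivator IkB-zeta, was at 598 ± 142 CPM in controls, against 623 ± 113 CPM in knockouts. The inhibitors Nfkbib and Nfkbie were at 50.02 ± 7.86 and 16.65 ± 6.59 CPM in controls, against 58.1 ± 6.95 and 19.65 ± 3.15 CPM in knockouts (SD, n = 4 each).

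The spread within the controls had a pattern of its own. Control replicate 3 was the lowest of all 8 libraries for 19 of the 43 tested members (44.2%), against 19.8% of all tested genes. These were Nfkb2, Rel, Rela, Relb, Nfkbia, Nfkbib, Nfkbie, Nfkbiz, Bcl3, Tnfaip3, Tnip1, Ier3, Tnf, Tnfrsf1b, Traf2, Birc2, Birc3, Casp4 and Mcl1. Control replicate 4 was the highest control for 18 of 43 (41.9%), against 21.8% of all tested genes, Nfkbia, Tnf, Icam1, Ier3 and Birc3 among them. Among the knockouts, replicate 1 was the lowest for 16 of 43 (37.2%), against 31.8% of all tested genes, and replicate 4 for 14 (32.6%), against 21.6%. Between control replicates 3 and 4, Tnf went from 6.84 to 49.3 CPM and Nfkbia from 698 to 1557 CPM, a wider gap than between the group means of either gene. Control replicate 3 also had the highest summed immune markers (22.95 CPM) and endothelial markers (4.68 CPM) of the 8 libraries. Its Langerhans cell markers, listed apart, summed to 263.6 CPM, within the range of the other controls. Its fibroblast markers summed to 253.3 CPM, the lowest of the 8 libraries. The part of any of these cell types in its low values was not tested. Without this library, Traf2 (log2 0.45, edgeR adjusted p = 0.02456) and Vcam1 (log2 -1.65, adjusted p = 0.02231) were still the members called.

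**Figure D4:**
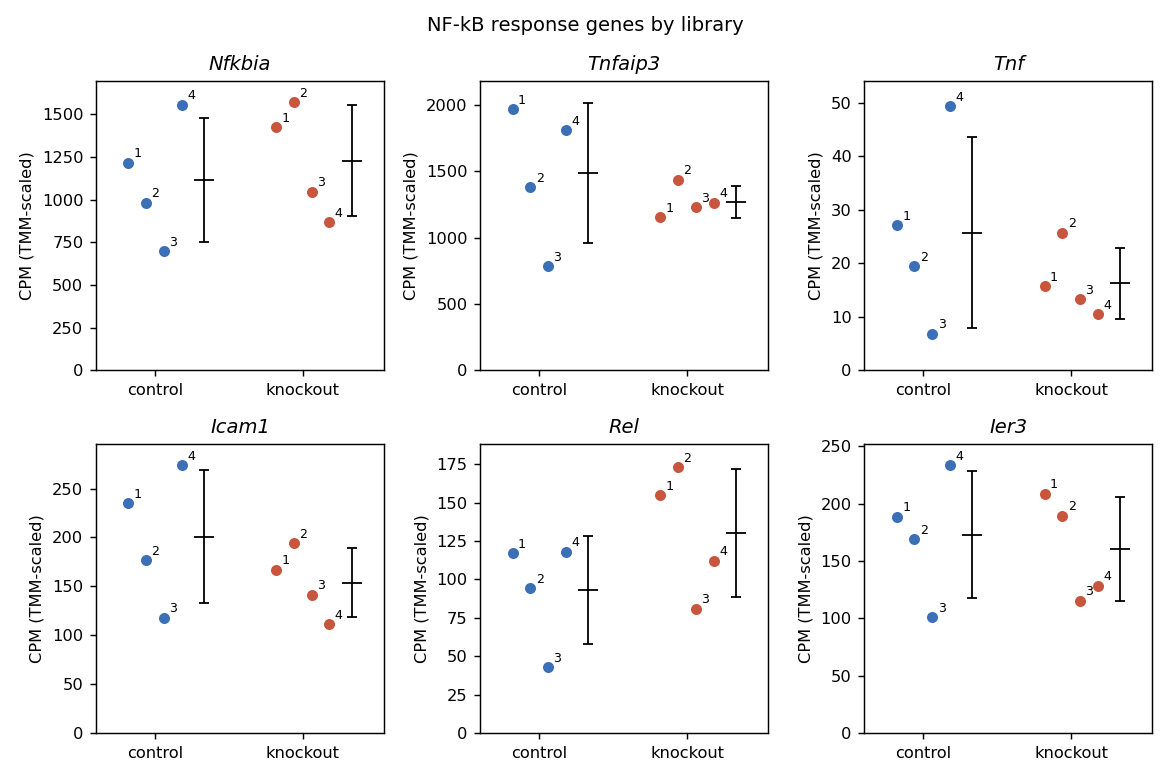
CPM (TMM-scaled, y axis from 0) of 6 NF-kB genes, as 1 point per library numbered by replicate, with mean and SD as bars. Control replicate 3 is the lowest control in all 6, at 6.84 CPM for Tnf and 698 CPM for Nfkbia, and the groups overlap in each.

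Genes that start apoptosis at the receptor gave no call. Casp8, the initiator caspase, was at 34.3 to 36.1 CPM in controls, against 33.9 to 40.3 CPM in knockouts. Its inhibitor Cflar, which encodes cFLIP, was at 50.7 to 58.5 CPM in controls, against 52.05 to 59.4 CPM in knockouts (log2 -0.003, 95% interval -0.18 to 0.18). Ripk1, the kinase that joins survival and death signals, was at 63.9 ± 3.83 and 64.7 ± 6.598 CPM, and the adaptor Fadd at 8.49 ± 1.68 and 6.82 ± 1.62 CPM (SD, n = 4 each). None of these 4 was called by edgeR, DESeq2 or limma-voom, beside 8.87% of all tested genes with edgeR. An unadjusted p under 0.05 was found for 0 of the 4, against 26.2% of all tested genes. The intervals of Casp8, Cflar and Ripk1 all lay between -0.18 and 0.29 on the log2 scale.

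For necroptosis, the kinase gene Ripk3 was at 29.6 ± 3.22 CPM in controls, against 31.6 ± 3.73 CPM in knockouts (SD, n = 4 each, log2 0.10, 95% interval -0.16 to 0.35). Mlkl, which encodes the pore-forming effector, was at 2.60, 2.97, 3.11 and 3.18 CPM in controls, against 2.65, 3.80, 6.37 and 4.39 CPM in knockouts. Knockout replicate 1 was within the controls, the other knockouts were above them, and the gene did not pass the test (log2 0.54, SE 0.25, edgeR adjusted p = 0.2002). The apoptosis regulators Bak1, Bcl2l1 and Mcl1 of the BCL2 family also did not pass. Mcl1, which promotes survival, was at 431.5 ± 40.2 CPM in controls, against 465 ± 15.2 CPM in knockouts. Bcl2l1, which encodes BCL-XL, was at 25.0 ± 4.26 and 21.4 ± 5.35 CPM, and the pore-forming Bak1 at 42.9 ± 5.30 and 38.1 ± 4.83 CPM (SD, n = 4 each).

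Inflammatory caspases and gasdermins were all present, with Gsdme under the filter. Of the 5 tested, 0 were called by edgeR, DESeq2 or limma-voom, beside 8.87% of all tested genes with edgeR. Only 1 (Gsdma) had an unadjusted p under 0.05, against 26.2% of all tested genes. Casp4, which encodes the mouse caspase-11 that senses cytosolic lipopolysaccharide, was at 39.4, 21.4, 12.4 and 30.5 CPM in controls, against 27.8, 30.4, 39.35 and 36.8 CPM in knockouts. Casp1, the caspase of the inflammasome, was at 16.3, 14.8, 11.1 and 14.95 CPM in controls, against 8.81, 9.89, 21.3 and 17.4 CPM in knockouts. The knockouts of Casp1 split to both sides of the controls, which gave a log2 fold change of 0.01 with a wide 95% interval of -0.60 to 0.61. Gsdmd, the gasdermin these caspases cut, was scarce at 2.52 ± 1.00 and 2.59 ± 0.928 CPM (SD, n = 4 each).

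Gsdma, a gasdermin of the skin, was at 11.2, 11.7, 12.2 and 22.4 CPM in controls, against 20.8, 34.9, 20.3 and 16.4 CPM in knockouts. Control replicate 4 was within the knockouts, and the log2 fold change was 0.68 (SE 0.29, edgeR adjusted p = 0.1635). Without control replicate 4 it was 0.98 and passed (edgeR adjusted p = 0.04615). That was the only 1 of 20 alternatives to call Gsdma. Over the 20, log2 fold changes ran from 0.42 to 0.98, with adjusted p-values of up to 0.6747. Gsdmc was at 18.6, 22.1, 41.3 and 18.2 CPM in controls, against 21.4, 19.9, 39.6 and 32.7 CPM in knockouts, with 1 high control and 2 high knockouts. Gsdma and Gsdmc each have similar neighbouring copies, so counts of a single copy are uncertain. Of those copies, Gsdma3 was at 1.57 to 4.15 CPM in controls, against 3.27 to 6.05 CPM in knockouts, and Gsdmc2 at 6.57 to 10.7 and 9.38 to 15.7 CPM. Gsdme had 7 to 23 counts in controls and 3 to 7 in knockouts and was not tested.

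Several of these death genes are also known to be induced by interferon, and interferon-stimulated genes were higher in these knockouts. In a list of 22 such genes, 16 rose and 6 did not pass (72.7% higher, against 4.33% of all tested genes). This list was chosen with earlier results of these data known, so neither its share nor a test of its sum is independent of them. The summed level of the list was 335.0, 644.1, 318.4 and 582.2 CPM in control replicates 1 to 4 and 722.0, 1254, 2293 and 1378 CPM in knockout replicates 1 to 4 (exact permutation p = 0.0286). Knockout replicate 3 had the highest sum, and among the 8 libraries it was highest for 5 of the 43 tested members (Mlkl, Tnfsf10, Casp1, Gsdmd and Birc2), or 11.6%, beside 11.9% of all tested genes, a share near that over all genes. Tnfsf10, which encodes the death ligand TRAIL, was at 3.83, 5.91, 3.73 and 6.16 CPM in controls, against 3.58, 5.37, 9.93 and 5.84 CPM in knockouts (edgeR adjusted p = 0.5217). Zbp1, a nucleic acid sensor that activates RIPK3 and was listed with the other death genes, was at 1.87, 4.67, 1.51 and 5.52 CPM in controls, against 3.80, 12.3, 48.8 and 16.1 CPM in knockouts. Knockout replicate 1 lay within the controls, and the difference did not pass (log2 2.58, SE 0.78, edgeR adjusted p = 0.07979). Whether the interferon genes and these death genes move together was not tested.

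**Figure D5:**
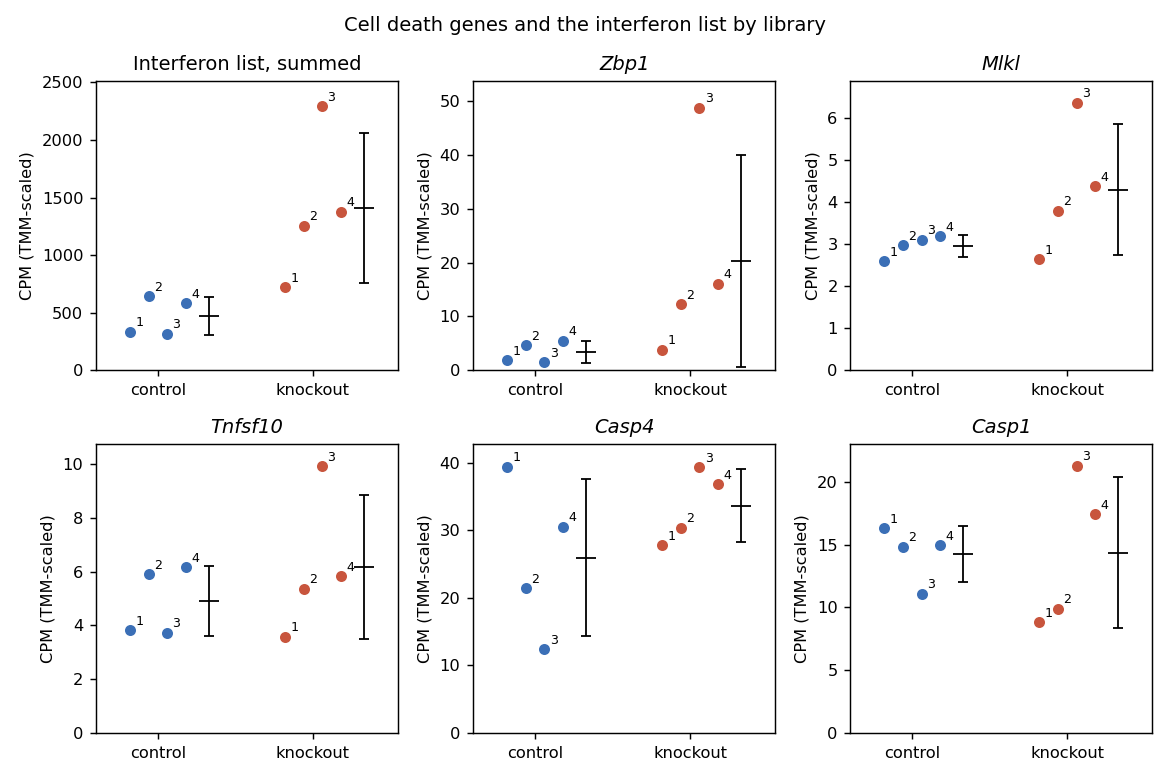
CPM (TMM-scaled, y axis from 0) of a list of 22 interferon-stimulated genes, summed, and of 5 cell death genes, as 1 point per library numbered by replicate, with mean and SD as bars. Knockout replicate 3 is the highest library for the list (2293 CPM), Zbp1, Mlkl, Tnfsf10 and Casp1 but not for Casp4; 11.6% of the tested members and 11.9% of all tested genes peak in that library.

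Beyond the 44 genes, a list of 36 other NF-kB pathway genes had 35 tested, of which 4 rose, 0 fell and 31 did not pass (median log2 fold change 0.14). The share called was 11.4%, all higher, against 8.87% of all tested genes (4.33% higher, 4.54% lower). The list was chosen with earlier results of these data known, so its share is not independent of them. Card14, a scaffold that activates NF-kB in keratinocytes, was at 8.68, 8.12, 4.28 and 10.1 CPM in controls, against 23.6, 26.2, 18.04 and 18.1 CPM in knockouts. Every knockout was above every control (log2 1.46, SE 0.24, 2.75-fold, edgeR adjusted p = 0.00761). Its annotated span overlaps that of Sgsh on the other strand.

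Irak2, a kinase downstream of interleukin 1 and Toll-like receptors, was at 4.50, 4.06, 4.68 and 5.84 CPM in controls, against 8.02, 12.8, 9.51 and 9.95 CPM in knockouts (log2 1.08, SE 0.18, edgeR adjusted p = 0.007225). N4bp1, an RNase that restrains NF-kB responses, was at 77.6, 73.6, 71.5 and 81.9 CPM in controls, against 153.8, 141.6, 103.0 and 111.8 CPM in knockouts (log2 0.74, SE 0.13, edgeR adjusted p = 0.00761). Both had all knockouts above all controls. Rnf31, the catalytic subunit of the linear ubiquitin ligase complex, was at 38.6, 42.3, 32.65 and 39.8 CPM in controls, against 51.0, 52.1, 62.0 and 59.2 CPM in knockouts (log2 0.55, SE 0.10, edgeR adjusted p = 0.01208). Irf9, an interferon pathway gene on the same strand whose GENCODE span overlaps that of Rnf31, went from 51.5 ± 17.5 to 131 ± 30.8 CPM (SD, n = 4 each), and its part in the Rnf31 difference was not tested. Card14, Irak2 and Rnf31 were called in all 20 alternatives, and N4bp1 in 19, with an adjusted p of 0.07077 in the 5 libraries without Y-linked transcripts.

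Of 42 other TNF superfamily ligands and receptors, 24 were tested, 2 fell and 0 rose (median log2 fold change 0.01). The share called was 8.33%, all lower, against 8.87% of all tested genes (4.54% lower, 4.33% higher). Ngfr, the neurotrophin receptor p75, was at 8.01, 9.43, 7.39 and 7.30 CPM in controls, against 2.90, 3.18, 3.85 and 2.56 CPM in knockouts (log2 -1.36, SE 0.17, edgeR adjusted p = 0.002901). Tnfsf9, the ligand of the costimulatory receptor 4-1BB, was at 7.06, 4.95, 3.48 and 8.62 CPM in controls, against 3.08, 2.42, 1.97 and 1.29 CPM in knockouts (log2 -1.46, SE 0.33, edgeR adjusted p = 0.02311). Both had all knockouts below all controls. Tnfsf9 missed the threshold when control replicate 4 (adjusted p = 0.05325), knockout replicate 2 (0.06182) or knockout replicate 4 (0.05011) was left out.

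Over all tested genes 8.87% were called and 4.54% fell. Of 55 other cell death genes, 42 were tested, 1 fell and 0 rose (2.38% called, median log2 fold change -0.05). The 1 was Bmf, a BH3-only activator of apoptosis, at 2.01, 2.27, 2.25 and 1.90 CPM in controls, against 0.931, 1.57, 1.07 and 1.14 CPM in knockouts (log2 -0.84, SE 0.23, edgeR adjusted p = 0.04535). All its knockouts were below all controls, but the call held in 9 of 20 alternatives and in 1 of the 8 leave-one-out fits, with adjusted p-values of up to 0.3698.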

How the data were processed

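RNA of mouse skin keratinocytes was sequenced in 4 control and 4 knockout libraries. The deposited files hold whole-number counts per gene symbol, not normalized, 1 file per library. The submitters' processing notes list TopHat2 2.1.0, Trimmomatic 0.35, FastQC 0.11.4 and SAMtools 0.1.18, with the build mm10. The counting tool, annotation and use of strand are not given in the sources used here. Lines for reads outside genes (15.7 to 21.75% of reads) and ambiguous reads (0.918 to 1.11%) were left out.

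Genes were filtered with filterByExpr, scaled by TMM and tested with edgeR's quasi-likelihood test (robust, genotype only), with Benjamini-Hochberg adjustment over 13016 genes and a threshold of 0.05. Versions were DESeq2 1.42.0, limma 3.58.1 and edgeR 4.0.16 under R 4.3.3. The fit was also tested on counts simulated from its own model, independently for each gene. That test cannot show the effect of a library in which many genes shift together. Intervals are nominal, from the fit's SE. Levels per kilobase used exons of GENCODE vM21, which need not be the annotation counted.

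Named in full were Hmgb1, members with an unadjusted p under 0.05, members with high levels in their role, those of the receptor complex, and called genes of the other lists. Icam1, Ptgs2, Tnf, Tnfrsf1b, Rel, Mlkl, Casp1, Casp4, Gsdmc, Tnfsf10 and Zbp1 were given in full after their values were seen. The members, lists and tests were chosen with earlier results of these data known. The 20 alternatives were limma-voom (plain or with quality weights), DESeq2, 3 scalings, 2 filters, non-robust dispersion, the replicate block, Y-linked transcripts, and each library left out.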

Additional observations from a re-analysis of the deposited data

Results flagged for a closer look

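3 of the 86 groups of 4 libraries (43 members in 2 genotypes) held 1 library far from the other 3, and chance gives about 1 in 20 such groups. Rela was at 139.5 CPM in control replicate 3, with the other controls at 234.7 to 254.8 CPM. Gsdma was at 22.37 CPM in control replicate 4, with the others at 11.2 to 12.2 CPM. Casp8 was at 36.07 CPM in control replicate 4, with the others at 34.3 to 34.6 CPM, a small step in a tight group.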

How the results depend on the processing

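Vcam1 was the 1 member called lower under all 20 alternatives. The count of members called higher, 1 in the fit reported, was 2 with DESeq2 and 2 with quality weights in limma-voom (Traf2 and Tnip1), 0 in the 5 libraries without Y-linked transcripts, and 0 to 2 with 1 library left out. Of 860 values of single members under the alternatives, 853 kept their side of the threshold, 3 lost the call and 4 gained it, and none that was called changed sign. The fold change kept 1 sign in every fit for 24 of the 43 members. Over all genes, 1154 calls became 2010 with DESeq2, 1912 with quality weights, 723 with the replicate block, 383 in the 5 libraries, and 462 to 1247 with 1 library left out. Without control replicates 2 and 4 and knockout replicates 1 and 2 the counts were 550, 769, 718 and 462. With library totals only, which moved the median log2 fold change from -0.02 to -0.13, 27.1% of calls were higher, against 48.8%. Other NF-kB pathway genes called were 4, and 4 to 6 with 1 library left out. The 2 TNF superfamily calls became 5 with DESeq2, 4 with quality weights, 4 with library totals only, and 1 to 3 with 1 library left out. The 1 call of other cell death genes became 5 with DESeq2, 4 with quality weights, 3 with library totals only, 2 with non-robust dispersion, 0 with no filter, with a term for Y-linked transcripts or in the 5 libraries, and 0 to 2 with 1 library left out. The causes were not tested. Same-numbered libraries did not deviate together (correlations of -0.173, -0.228, -0.053 and -0.061), so the block rests on a shared number only. It left 1 member called higher and 1 lower. Depth limits Vcam1, Traf1 and Gsdme most, with at most 107 counts in every library.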
